A study of Homo sapiens with 15 samples.

Results

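Constitutive FOXA1 sites are here the peaks of the parental DMSO list that overlapped, by at least 1 bp, a peak in each of the 10 other FOXA1 lists without knockdown and no peak after FOXA1 knockdown. There were 2507 such sites among the 30557 peaks of the parental DMSO list, or 8.20% (95% Wilson interval 7.90 to 8.52%). The sites were selected on the peak calls, which go with score, so their presence in the lists and their scores are described and carry no test. "Constitutive" means called in these 11 libraries. With 1 library per condition, a call depends on read depth and enrichment as well as on binding, and the depth of the libraries is unknown.

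FOXA1 was profiled by chromatin immunoprecipitation and sequencing (ChIP-seq) in 22Rv1, an established human prostate carcinoma cell line. Parental cells were exposed for 3 h to DMSO (0.1%), to the stereoprobe WX-02-23 or the stereoprobe WX-02-43 (each 20 µM), or to PladB (pladienolide B, which binds the splicing complex that contains PHF5A). The labels give 2 doses for PladB in parental cells, 100 nM for the sample and 10 nM in the shared protocol. Knockdown of FOXA1 in parental cells used siRNA (siFOXA1), with siControl as its control, at a dose and time that the labels do not give. A pair of engineered 22Rv1 lines overexpressed Y36C-PHF5A and carried doxycycline-inducible FOXA1, wild type (WT) in one line and with the change C258A in the other. Libraries of each engineered line came from uninduced cells (treatment label DMSO), from induced cells in DMSO, and from induced cells exposed to WX-02-23 at 20 µM. The doxycycline dose and time are not in the labels. Both lines retain the cells' own FOXA1, and the labels name a FOXA1 antibody without a tag, so induced and endogenous protein were not separated. Whether a line is a single clone is not stated. The study asks how covalent stereoprobes change where FOXA1 sits on chromatin, and at these sites the question becomes which order of strength they keep.

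FOXA1 is a forkhead pioneer transcription factor, a protein that can bind its sites in closed chromatin and make them accessible to other factors. In prostate epithelium it is known for directing the androgen receptor to enhancers, and it is frequently mutated in prostate cancer. Most FOXA1 sites in any cell lie away from promoters and many are specific to a cell state. The constitutive sites are set apart here only by the selection on peak calls. Whether they are less specific to a cell state than other sites was not tested. A genome of the files' build, hg19, was not used here, so no sequence, motif or neighbouring gene is given for these sites.

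The 12 lists held between 3018 peaks, after FOXA1 knockdown, and 34119, with siControl. Each peak carries the authors' own score, whose definition is not stated and which was 90 or more for every peak. Lists were compared by ranks, and scores of single sites are printed beside them as the authors' values, which are not on a scale known to be shared between lists. Many of the strongest peaks share the score 3100, among them 163 constitutive sites in the parental DMSO list, so their order among themselves is not resolved there.

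The parental DMSO peaks can be counted by the number of other lists in which each was called. Of these peaks, 1555 were called in none of the 10 other lists, 5234 in 2, 4622 in 4, 1637 in 9 and 2646 in all 10. The number called in all 10 thus exceeded the numbers called in 7, 8 or 9. Because 10 is the end of a bounded count, this does not show a separate class. The median DMSO score was 464 for peaks called in 8 lists, 653 in 9 and 1287 in 10. As background, 88.2% of all parental DMSO peaks were called with PladB, 88.1% with siControl, 55.5% with WX-02-43, 47.2% with WX-02-23 and 3.92% with siFOXA1. In WT cells 26.3% were called before induction, 36.6% after it in DMSO and 28.8% after it in the presence of WX-02-23. The C258A libraries, in that order, called 38.1%, 17.3% and 25.6%. The rule used these calls, so nothing is read from the sites being called in each.

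**Figure D1:**
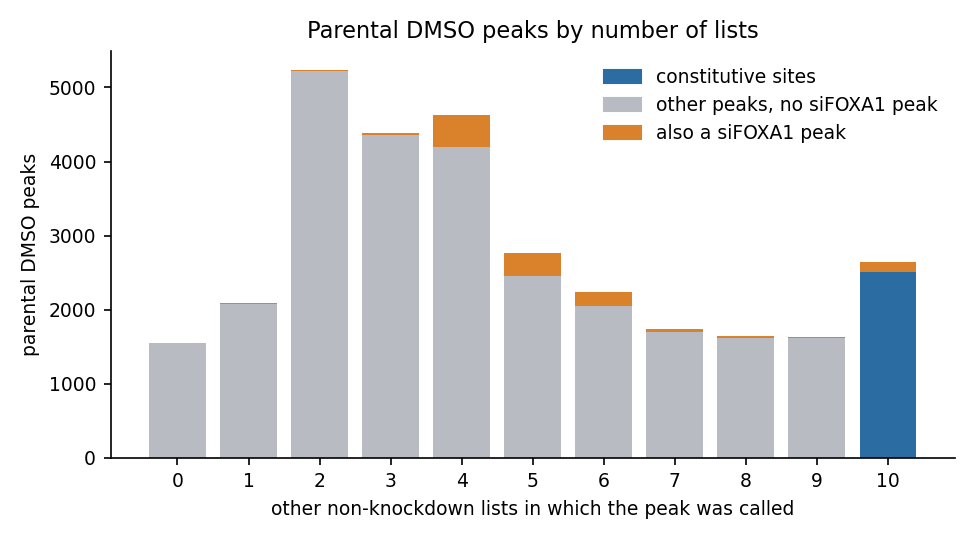
Number of parental DMSO peaks (vertical axis) by the number of the 10 other non-knockdown lists in which each was called (horizontal axis). The bar at 10 holds the 2507 constitutive sites and, in orange, 139 peaks that were also called with siFOXA1, while the bars at 7, 8 and 9 are lower, at 1743, 1642 and 1637 peaks.

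The knockdown condition removed 139 of the 2646 peaks called in all 10 lists (5.25%, 4.47 to 6.17%), and these were among the strongest. Their median DMSO score was 3100 and their median width 1555 bp, against 1240 and 1131 bp for the constitutive sites. As background, 3.92% of all parental DMSO peaks overlapped a siFOXA1 peak, and 16.6% of the highest 10% by score did. Among peaks called in 4, 5 and 6 of the other lists the shares were 9.11%, 11.5% and 8.48%. A further 1614 peaks stood just outside the rule because exactly 1 list missed them, with a median DMSO score of 647. The list missing was C258A with doxycycline and DMSO for 743 of these (46.0%), WT without doxycycline for 358 and parental WX-02-23 for 223. No peak was missed by PladB or siControl alone. Of the 743, 10 had a peak of that C258A list within 500 bp. Just inside the rule, the smallest overlap of a site with any list was 32 bp, and its median over the sites was 464 bp.

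The 3 strongest peaks just outside show that a high score in the parental DMSO list did not ensure a call elsewhere. The peak at chr18:61348194-61349629 scored 3129.58 with DMSO and between 182.94 and 2722.89 in 9 other lists, and had no WT peak without doxycycline within 257.7 kb. The peak at chr1:212401266-212402890 scored 3100 and was missed in C258A cells with doxycycline and DMSO. The peak at chr13:99068046-99069526 scored 3100 too and was missed in WT cells with doxycycline and WX-02-23.

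The constitutive sites were mostly strong peaks. In the parental DMSO list their scores ran from 123.45 to 3228.29 with a median of 1240, against a median of 208 for the other DMSO peaks. A site's percentile, its rank by score within the list as a percentage with tied scores averaged, had a median of 93.3 with DMSO, 93.3 with PladB, 92.8 with siControl, 85.1 with WX-02-43 and 80.5 with WX-02-23. The WT medians were 79.0 uninduced, 88.1 induced in DMSO and 81.5 induced in WX-02-23, and the C258A medians were 87.0, 66.4 and 80.3. Lists differ in length, so these percentiles place the sites within each list and do not measure a change between lists.

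The spread within a list was wide, and the C258A list with doxycycline and DMSO was the one in which the sites ranked lowest. There 865 of the 2507 sites (34.5%) lay below the median of the list, and 493 (19.7%) lay in its top 10%. In the parental DMSO list 30 sites (1.20%) lay below the median and 1559 (62.2%) in the top 10%. Above the median of all 11 lists lay 1130 sites (45.1%). In the top 10% of all 11 lay 165 sites (6.58%), and 453 sites (18.1%) were in the top 10% of none.

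**Figure D2:**
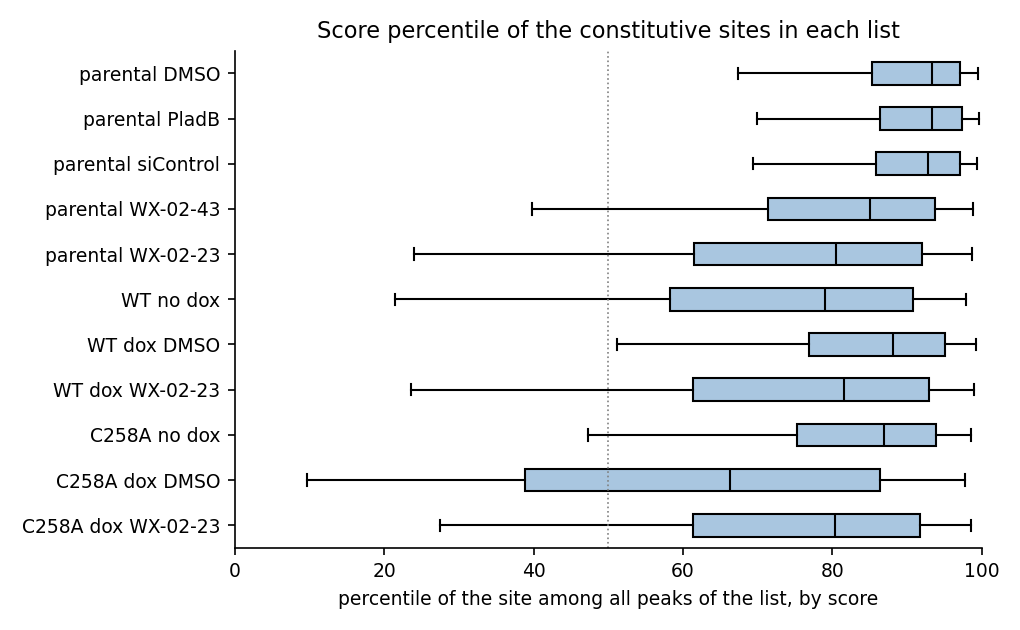
Percentile of the 2507 constitutive sites among all peaks of each list, by score (horizontal axis, in percent), 1 row per library. Boxes span the middle 50% with the median as a line, whiskers run from the 5th to the 95th percentile of the sites, and the medians lie between 66.4 (C258A with doxycycline and DMSO) and 93.3 (parental DMSO).

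The sites made up different shares of the top of each list. Among the 1000 highest-scoring peaks they were 812 (81.2%) in C258A and 772 (77.2%) in WT cells without doxycycline, the highest shares of any list. With doxycycline and DMSO they were 374 (37.4%) and 435 (43.5%). In parental cells they were 701 with DMSO, 689 with PladB, 631 with siControl, 552 with WX-02-43 and 468 with WX-02-23. As background, peaks at the sites made up 30.4% of the whole list in WT and 20.5% in C258A cells without doxycycline. With doxycycline and DMSO they made up 8.21% and 19.4%. In parental cells they made up 8.20% with DMSO, 7.59% with PladB, 7.39% with siControl, 14.1% with WX-02-43 and 15.0% with WX-02-23. The top 1000 is a different part of each list, so these counts do not measure a change at the sites. The top of the list held fewer of these sites with doxycycline than without in both lines, and fewest with WX-02-23 among the parental lists, from 1 library each.

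The sites with the highest mean percentile over the 11 lists were chosen for being high in them, and their values are given as a description. The site with the highest mean percentile, chr4:89435294-89437172, is 1879 bp wide and scored 3100 in the 5 parental lists. It scored 3017.94 in WT cells uninduced, 3100 induced in DMSO and 3100 induced in WX-02-23. In C258A cells it scored 3100 uninduced, 2323.64 induced in DMSO and 2997.61 induced in WX-02-23. Its percentile never fell below 99.5. The next 4 were chr7:12259614-12261341, chr12:101869030-101870714, chr11:107021547-107023243 and chr9:104149988-104152030. All 4 stayed at a percentile of 99.1 or more in each of the 11 lists.

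At the other end, the sites with the lowest mean percentile were called everywhere while weak in most lists. The lowest, chr6:26365358-26366094, scored 165.29 with DMSO, 191.44 with PladB, 176.43 with siControl, 122.14 with WX-02-23 and 90.22 with WX-02-43. In WT cells it scored 148.9 uninduced, 272.62 induced in DMSO and 296.91 induced in WX-02-23, and in C258A cells 90.98, 119.69 and 105.01. Its percentile ran from 0.244 in the WX-02-43 list to 74.8 in the WT list with WX-02-23. The others were chr4:15664352-15664947, chr12:12682510-12683252, chr1:180600553-180602329 and chr7:107119639-107120386, with mean percentiles from 37.5 to 39.7.

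Membership went with score, as the rule implies. When DMSO peaks were ranked by score, 51.0% (49.2 to 52.8%) of the top 10% were constitutive sites. In the next 10% the share was 18.6% (17.3 to 20.0%), then 7.30% and 3.21%, and none of the 3056 peaks in the lowest 10% qualified, where up to 0.126% is within the interval.

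The sites were wide peaks, and within each 10% of the DMSO score the difference in width was smaller. It was largest in the highest 10% by score, which held 1559 of the 2507 sites. Scores there ran from 975.29 to 3228.29, and sites and other peaks were not matched further by score. Over all 2507 sites the median width was 1131 bp (mean 1200 ± 398 bp, SD over sites). For the other DMSO peaks it was 661 bp (mean 716 ± 287 bp). Within the highest 10% by score the medians were 1278 and 1137 bp, in the next 10% 960 and 951 bp, and in the one after it 849 and 838 bp. The widest site, chr3:197825524-197833064, spanned 7541 bp, and the narrowest, chr1:72469241-72469614, spanned 374 bp. The narrowest lies 11 bp from a second constitutive site, and both were matched by the same peak in 9 of the 10 other lists, so 9 lists hold 1 peak where the DMSO list holds 2.

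Overlap was required by the rule, and the distance between peak centres is given as a description. The midpoint of the matching peak lay a median of 46.5 bp from the DMSO midpoint with siControl and 59 bp with WX-02-23, the least and the most distant of the 10 lists. Within 100 bp lay 82.3% of the sites with siControl and 72.5% with WX-02-23. For 2433 sites (97.0%) the 11 matching peaks had bases in common, with a median of 434 bp and a middle 50% from 370 to 504 bp. The common bases added up to 1.08 Mb out of the 3.01 Mb that the sites covered in the DMSO list. Widths differed between lists, with medians at the sites from 497 bp in WT cells without doxycycline to 1235 bp with PladB. Requiring overlap of 50% of both peaks left 525 sites in place of 2507.

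Neighbouring DMSO peaks were somewhat nearer to the constitutive sites than to other peaks. Another DMSO peak lay within 10 kb of 894 sites (35.7%, 33.8 to 37.6%), against 30.3% (29.8 to 30.9%) of the other DMSO peaks. The median distance to the nearest DMSO peak was 18.9 kb and 23.9 kb. In the highest 10% by score the shares were 38.3% (35.9 to 40.7%) and 30.7% (28.4 to 33.1%), while in the next 10% they were 28.8% (25.3 to 32.7%) and 30.2% (28.5 to 32.1%), with overlapping intervals. They overlapped in the one after it too and stood apart in the fourth, at 42.9% (33.5 to 52.7%) of 98 sites and 29.4% (27.8 to 31.1%). Peaks within 500 bp can be parts of 1 region, and counting only neighbours from 500 bp to 10 kb in the highest 10% gave shares of 33.7% (31.4 to 36.1%) and 26.9% (24.7 to 29.2%). These intervals cover counting error only and treat neighbouring peaks as independent, which they are not. Within each 10% of the DMSO score, sites and other peaks were not matched further by score.

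**Figure D3:**
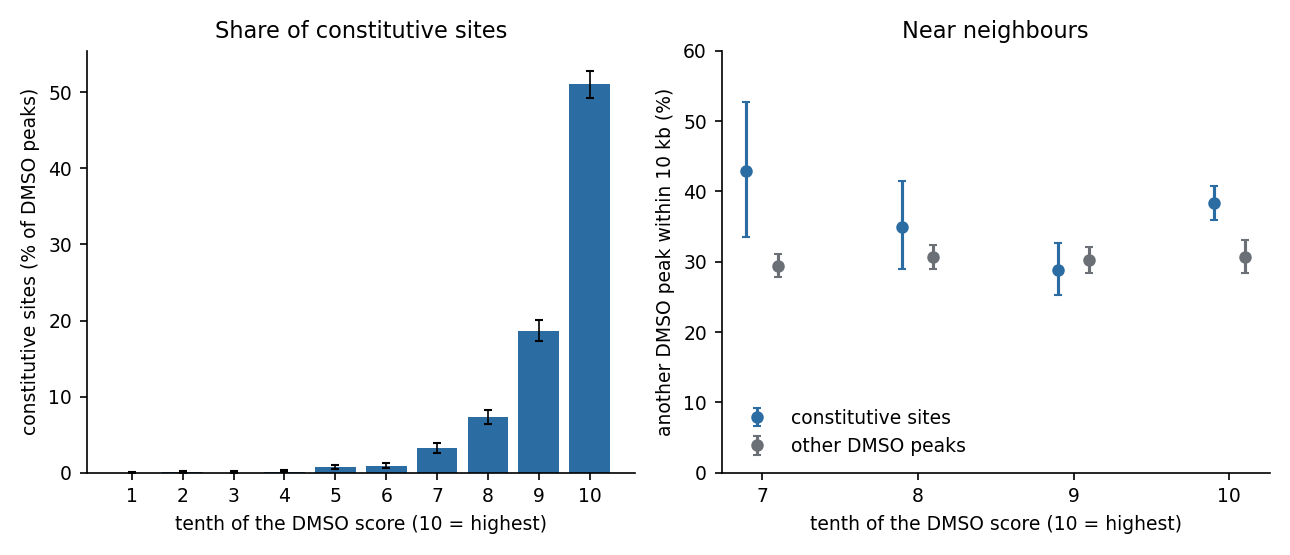
Left, percent of parental DMSO peaks that are constitutive sites, by 10% bin of the DMSO score (10 is the highest). Right, percent of constitutive sites (blue) and of other DMSO peaks (grey) with another DMSO peak within 10 kb in the 4 highest bins. Bars and points carry Wilson 95% intervals. The left panel climbs to 51.0%, and on the right the groups stand apart in bin 10 at 38.3% and 30.7% and in bin 7 at 42.9% and 29.4%, and overlap in bins 8 and 9.

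Distances among the sites themselves depend on their number, and no background for a set of this size was computed. The nearest other constitutive site lay a median of 254 kb away, with a middle 50% from 90.6 to 627 kb, and 18.1% (16.7 to 19.7%) of the sites had one within 50 kb. Chains with gaps of up to 50 kb held 455 sites, in 187 pairs and 26 longer chains. The 3 longest had 4 sites each, at chr3:178863005-178911130, chr4:102081851-102187358 and chr8:29569876-29643222. Of the 1 Mb windows, 1465 held a site and 35 held 5 or more. The windows with most sites were chr2:181000001-182000000 with 8 among 24 DMSO peaks and chr7:16000001-17000000 with 8 among 29. Windows on chr1, chr13 and chr8 followed with 7 each. Peaks called after FOXA1 knockdown lay near few of the sites and near few of the other DMSO peaks that overlap none. One lay within 10 kb of 36 sites (1.44%, 1.04 to 1.98%) and of 1.85% (1.70 to 2.02%) of those other peaks. These intervals overlap, so the sites were not set apart by this. The rule itself excluded sites that overlap a peak called after knockdown.

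The chromosomes differed in the share of their DMSO peaks that were constitutive. The share was highest on chr18 at 11.3% (9.14 to 13.9%), chr8 with 165 of its 1505 peaks (9.48 to 12.6%) and chr21 at 10.6%. It was lowest on chrY at 2.44%, chr19 at 2.64% (1.65 to 4.18%) and chrX at 2.93% (2.01 to 4.26%). By number, chr1 held most sites with 237, followed by chr7 with 226. Per Mb up to the last peak, autosomes ranged from 0.288 sites on chr19 to 1.42 on chr7.

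Among autosomes, gene-dense chromosomes had smaller shares of constitutive sites, while chrX and chrY were low outside this order. Across the 22 autosomes, Spearman's rho between the share and the number of protein-coding genes per Mb was -0.73, and -0.69 without chr19. This is a description over 22 points that share 1 library and that differ in size and base composition. Among the highest 10% of peaks alone the rho was -0.59, with 32.6% (20.9 to 47.0%) of such peaks constitutive on chr19, 36.8% (26.3 to 48.6%) on chr17 and 62.7% (53.1 to 71.5%) on chr13. The share of a chromosome's peaks that were in the highest 10% had a rho of -0.24 with gene density.

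**Figure D4:**
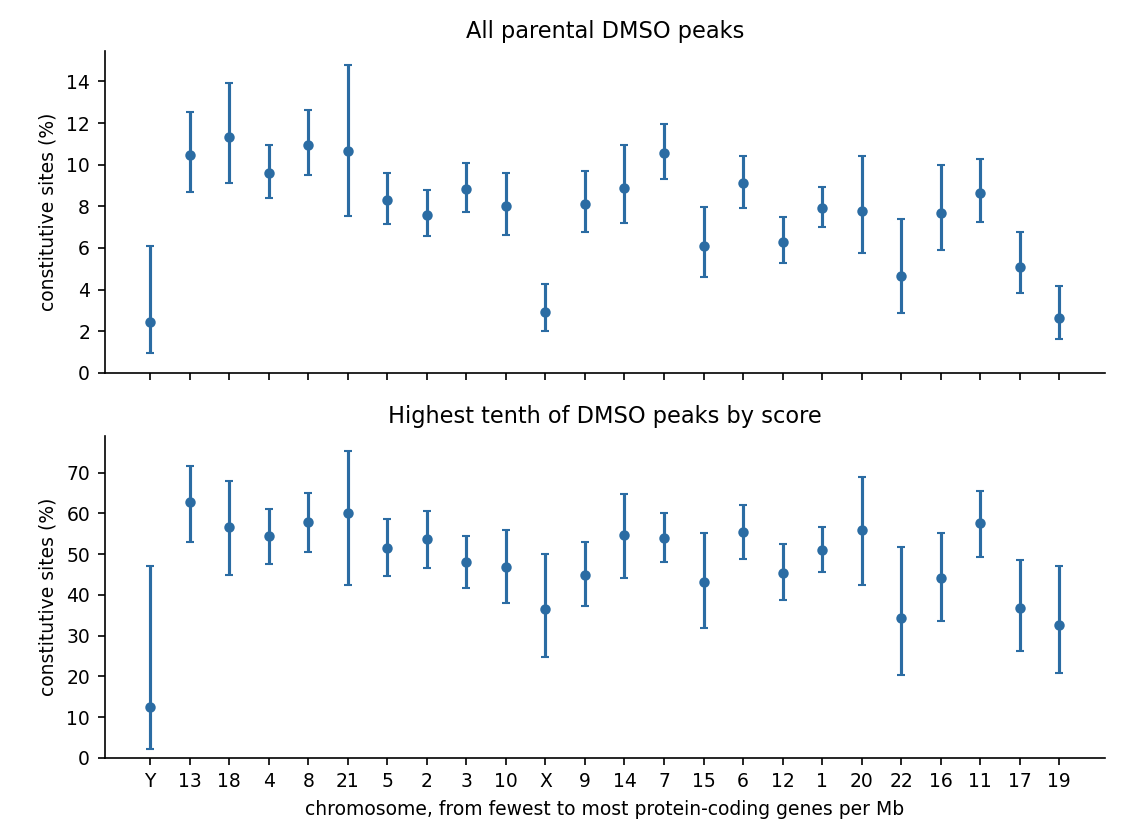
Percent of parental DMSO peaks that are constitutive sites on each chromosome, among all peaks (top) and among the highest 10% by score (bottom), with Wilson 95% intervals. Chromosomes run from the fewest protein-coding genes per Mb (chrY) to the most (chr19), and chr19, chr22 and chr17 lie low in both panels, as do chrX (2.93% and 36.5%) and the gene-poorest, chrY (2.44% and 12.5%).

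Because every site has a peak in every list, the order of the 2507 sites by score can be set side by side between libraries of any length. The scores behind the orders differ in size, so the orders may not be equally well resolved. Median site scores were 1240 with parental DMSO, 1210 with PladB and 1149 with siControl. They were 535 with WX-02-43, 458 with WX-02-23 and 219 in C258A cells with doxycycline and DMSO. Tied at 3100 were 163 sites with parental DMSO and 12 with WX-02-23. The part of score size in the movements was not tested. Each site's rank among the sites was written as a percentage, from near 0 for the weakest to 100 for the strongest, and a movement is the difference in points between libraries. Spearman's rho between these orders is a description over 2507 sites that share cells, antibody and genome.

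Without WX-02-23, the orders fell into those of parental, uninduced and induced cells. The parental DMSO order had a rho of 0.96 with PladB, 0.93 with siControl and 0.91 with WX-02-43. With the engineered lines without doxycycline it was 0.70 for C258A and 0.65 for WT, and these lines had a rho of 0.79 with each other. With doxycycline and DMSO, WT and C258A cells had a rho of 0.81 with each other but of 0.45 and 0.44 with parental DMSO. Within a line, doxycycline went with a median movement of 20.0 points in WT cells (rho 0.43) and 16.7 points in C258A cells (rho 0.54). The rule required a call with and without induction, so only the difference in order by strength is a description of these libraries.

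WX-02-23 went with a different order of the same sites in parental cells, and WX-02-43 at the same dose and time did so much less. The median size of the movement from DMSO was 14.6 points (13.9 to 15.4) with WX-02-23, 6.26 (6.02 to 6.66) with WX-02-43, 5.80 (5.50 to 6.10) for siControl and 4.59 (4.35 to 4.87) with PladB. The 2 stereoprobe lists held 17217 peaks with WX-02-23 and 18228 with WX-02-43. The part of list length, depth or enrichment in these movements was not tested. These intervals cover the sites of 1 library each, the 4 comparisons share the DMSO library, and with no replicate the difference between the compounds could not be tested.

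The number of sites that moved far shows the same contrast. With WX-02-23, 372 sites (14.8%) ranked more than 25 points lower than with DMSO and 350 (14.0%) more than 25 points higher. With WX-02-43 the numbers were 74 and 55, with siControl 31 and 39, and with PladB 8 and 9. Of the 251 sites in the top 10% of the DMSO order, 123 (49.0%) stayed there with WX-02-23. In the WX-02-43 order 198 did, in the siControl order 209 and in the PladB order 213. Compared directly, WX-02-23 and WX-02-43 differed by a median of 13.8 points (13.2 to 14.6).

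The movement was not particular to the constitutive sites. The 9261 other DMSO peaks called in all 4 other parental lists, ranked among themselves, moved by a median of 18.4 points with WX-02-23 and 11.4 with WX-02-43, and for siControl and PladB by 8.20 and 6.65. The movements at the constitutive sites were smaller in each of the 4 lists.

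In both engineered lines, most sites that had moved by more than 25 points in parental cells moved in the same direction with WX-02-23. These libraries are separate from the parental ones. The 372 sites ranking lower in parental cells had a median movement of -17.3 points (-20.4 to -15.0) in WT cells, and 320 of them (86.0%) ranked lower there. In C258A cells the median was -12.0 points (-15.6 to -9.81), and 295 (79.3%) ranked lower. The 350 sites ranking higher in parental cells had a median of 16.0 points (13.9 to 18.3) in WT cells and 13.0 points (10.2 to 15.2) in C258A cells, with 299 and 279 of them higher.

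Over all 2507 sites the median movement was 0.299 points in WT and -0.558 in C258A cells, and 49.5% and 52.3% ranked lower. The movement with WX-02-23 in parental cells had a rho of 0.54 with that in WT cells and of 0.44 with that in C258A cells. The movement with WX-02-43 had a rho of 0.08 with each. Whether WT and C258A cells differ was not tested, since each has 1 library per condition. Among 984 DMSO peaks that were called in the same 6 lists but are not constitutive sites, the corresponding rho was 0.36 and 0.23.

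The orders themselves show the same shift. The parental WX-02-23 order had a rho of 0.54 with WT cells under WX-02-23 and 0.37 with WT cells under DMSO. The parental DMSO order had a rho of 0.27 and 0.45 with these libraries. For C258A cells the values were 0.51 and 0.30 for the parental WX-02-23 order, and 0.38 and 0.44 for the parental DMSO order. In both lines the library with the compound was nearer to the parental library with the compound, and the one without to the parental one without.

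**Figure D5:**
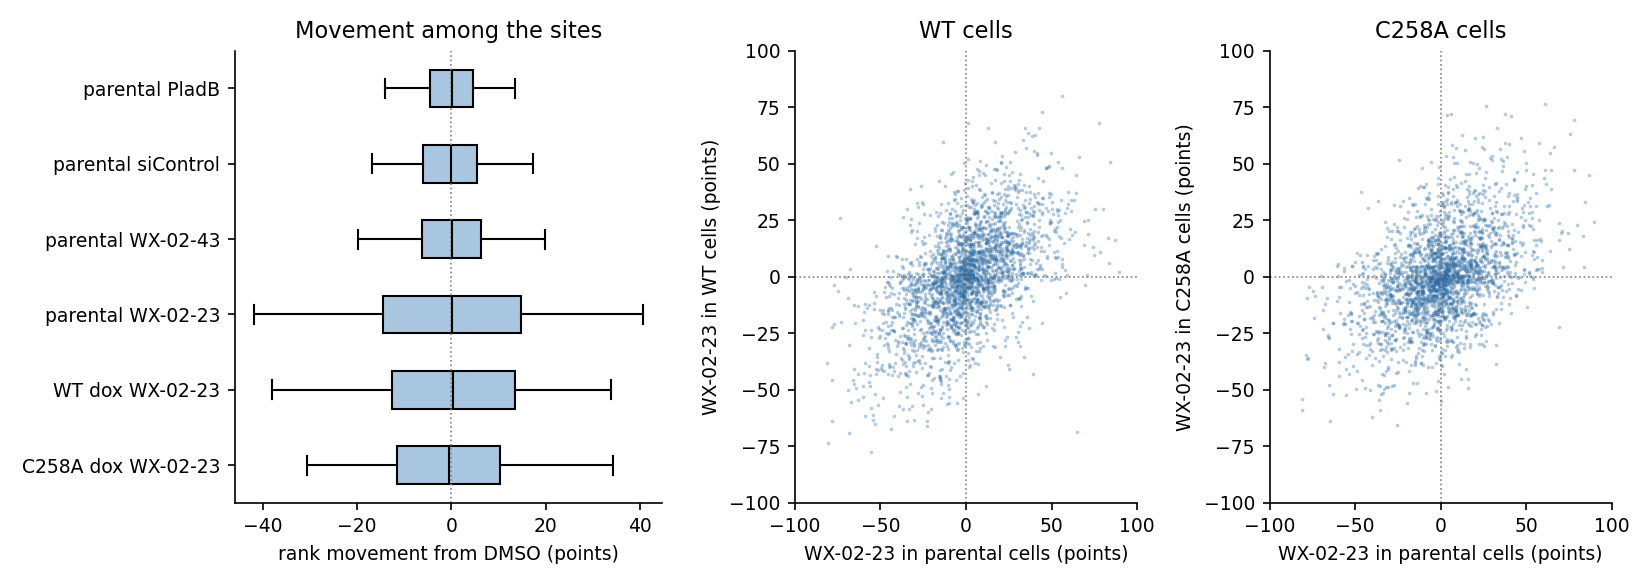
Left, movement in rank from the DMSO library of the same cells, in points, for the 2507 constitutive sites (boxes, middle 50% with the median; whiskers, 5th to 95th percentile). Middle and right, movement with WX-02-23 in WT and in C258A cells (vertical axes) against that in parental cells (horizontal axes), 1 point per site. The WX-02-23 boxes are wider than those of WX-02-43, PladB and siControl, and the clouds slope upward in both lines with rho of 0.54 and 0.44.

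Single sites show how far the order turned. The site that moved down most, chr9:82103993-82105335, scored 2909.47 with DMSO, 2741.23 with PladB, 2692.59 with siControl, 1171.41 with WX-02-43 and 159.96 with WX-02-23. In WT cells it scored 1476.53 uninduced, 1020.91 induced in DMSO and 303.32 induced in WX-02-23, and in C258A cells 2137.69, 424.82 and 224.37. Its rank lay at 91.1 with DMSO and 9.91 with WX-02-23, a movement of -81.2 points, and the movement with WX-02-43 was -5.35. It moved by -38.2 points in WT and -54.2 points in C258A cells. So the site ranked lower with WX-02-23 than with DMSO in each of the 3 kinds of cell.

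The next 2 ranked lower with WX-02-23 in each of these cells too, and with WX-02-43 they moved by -2.19 and -14.4 points. The site chr9:128058487-128060087 moved by -80.9 points in parental, -73.6 in WT and -58.8 in C258A cells. Its score was 2812.51 with DMSO and 154.74 with WX-02-23 in parental cells, and 891.49 and 99.25 in WT cells. The site chr18:21208943-21210226 moved by -78.5, -22.4 and -34.6 points, and scored 2071.77 with DMSO and 96.16 with WX-02-23 in parental cells.

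The site that moved up most was chr7:13878438-13879446. It scored 369.8 with DMSO, 315.26 with PladB, 334.48 with siControl, 207.35 with WX-02-43 and 1707.28 with WX-02-23. In WT cells it scored 149.52 uninduced, 2234.21 induced in DMSO and 3010.91 induced in WX-02-23, and in C258A cells 100.82, 319.03 and 1103.11. It moved by 3.75 points with WX-02-43, and with WX-02-23 by 89.5 points in parental, 2.07 in WT and 24.1 in C258A cells. In WT cells without the compound it ranked at 16.4 uninduced and at 97.5 induced in DMSO. A second DMSO peak, scored 191.52, lies 12 bp away and was matched by the same WX-02-23 peak. Both also match a single peak with PladB, with siControl, and in induced WT and C258A cells with DMSO and with WX-02-23. The scores of these single peaks are those given above.

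The other 2 were chr15:34753536-34754483, which moved by 87.0 points in parental, 16.2 in WT and 45.1 in C258A cells, and chr9:46613753-46614576, which moved by 84.2, 50.9 and 33.3 points. The first scored 297.28 with DMSO and 1305.8 with WX-02-23 in parental cells, and 184.45 with WX-02-43. The second scored 474.69, 1533.76 and 481.5. By rank the second moved up with WX-02-43 too, by 35.4 points, and the first by 4.51 points.

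The sites that ranked lower with WX-02-23 were chosen on DMSO rank as well, so their DMSO score, and the width that goes with it, is a description of the choice. Their median DMSO score was 1675, against 785 for those that ranked higher, and their median width 1244 against 966 bp. In C258A cells without doxycycline the median ranks of these sets were 69.5 and 27.9, close to the parental DMSO values of 68.7 and 27.0. With doxycycline and DMSO they were 62.0 and 41.7 in C258A cells, and 43.1 and 62.7 once WX-02-23 was added. In WT cells they were 56.6 and 50.7 with doxycycline and DMSO, and 32.3 and 70.2 once WX-02-23 was added. The median distance to the nearest DMSO peak was 17.5 kb for the sites that ranked lower and 21.7 kb for those that ranked higher. Another DMSO peak lay within 10 kb of 36.8% and 32.6% of them, a difference that was not tested.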

How the data were processed

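FOXA1 ChIP-seq peak lists of 12 libraries were used, 1 per group, and the 3 input libraries were not analysed here. Per the submitters' processing notes, the tools include bcl2fastq and Bowtie2 and the build is hg19. The files have no header, and their peak names begin with MACS, a peak caller. The deposited score is the authors' own value per peak, its definition not given in the sources used here. Each list was called on its own library. Depth is unknown, so no floor or interval for it is given.

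The peak start and end positions were deposited by the authors in bp, with starts counted from 0, and are printed counted from 1. Overlaps, gaps and ranks were computed with Python 3.11.15, numpy 2.4.6, pandas 2.3.3 and scipy 1.17.1, and the interval code was tested on simulated data. Where several peaks of a list matched a site, the one with the highest score was taken. Of the sites, 2136 (85.2%) were matched by exactly 1 peak in every list with no other DMSO peak within 500 bp. Shares carry Wilson 95% intervals, and medians carry 95% intervals from order statistics. Both cover counting error only. With 1 library per group no test between conditions was made.

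Protein-coding genes per chromosome were counted in a RefSeq table of GRCh38.p14 and none of its coordinates was used. Motifs, start sites and gene lists planned for an annotated hg19 were not analysed. Named sites are the 5 with the highest and the 5 with the lowest mean percentile, the 3 moving most in each direction with WX-02-23, the widest, the narrowest, the windows with most sites and the 3 strongest peaks missing 1 list. Sites, lists and rules were chosen with earlier results of these data known. Summaries of rank movement and their alternatives were added after the data were seen.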

Additional observations from a re-analysis of the deposited data

Results flagged for a closer look

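A few summaries of where the constitutive sites stand within their lists differed in opposite directions in WT and C258A cells. The lists differ in length, so these are differences in place within a list and do not measure a change at the sites. Each value rests on 1 library, and the differences were not tested. With WX-02-23 against DMSO, the median percentile of the sites differed by -6.62 points in WT cells and by 13.9 points in C258A cells. The share of sites among the 1000 highest-scoring peaks differed by -5.40 and 2.60 percentage points. With doxycycline against none, the median percentile differed by 9.17 points in WT cells and by -20.6 points in C258A cells. The number of peaks moved as well, with 31735 in DMSO and 25849 in WX-02-23 for WT, and 13299 and 20609 for C258A. Uninduced cells had 8575 in the WT line and 12752 in the C258A line. The part of list length in these differences was not tested.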

How the results depend on the processing

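The 10 results were recomputed under 80 alternatives in all. In 48 the value stayed inside its 95% interval, or a count inside a factor of 1.5, and 32 moved. None changed sign, which only the signed rank movements in WT and C258A cells could have done. Values are given in the order number of sites, share of DMSO peaks, median DMSO percentile, median width, share with a DMSO peak within 10 kb, share with another site within 50 kb. A reciprocal overlap of 50% gave 525 sites, 1.72%, 85.5, 887 bp, 32.8% and 5.14%. The top 50% of every list gave 1194 sites, 7.82%, 93.9, 1282 bp, 23.0% and 10.2%, from fewer peaks by construction. Without the condition on siFOXA1 the share became 8.66%, the percentile 93.8 and the width 1150 bp. A gap of up to 500 bp put 20.1% of sites within 50 kb of another, and siControl as anchor gave a share of 7.34%. Leaving each list out of the rule in turn gave 2507 to 3250 sites and 8.20 to 10.6%, the highest without C258A with doxycycline and DMSO. Other distances gave 23.8% at 5 kb and 76.8% at 50 kb for DMSO peaks, and 5.94% at 10 kb and 26.9% at 100 kb for other sites. Rank movement with WX-02-23 became 13.0 points under reciprocal overlap and 13.8 without the siFOXA1 condition. With WX-02-43 it became 6.95, 5.97 and, in the top 50%, 6.87 points, below WX-02-23 in each setting run. Sites that ranked lower in parental cells moved by -20.5 points in WT cells in the top 50% and by -8.19 points in C258A cells under reciprocal overlap. The motif and promoter alternatives were not run, as no hg19 genome or annotation was used. No paired analysis was possible because each group has 1 library. Read depth, which limits every list, is unknown.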
